A study of Mus musculus with 30 samples.

Results

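The NRF2 pathway was followed in tumors of 5 MCA-induced mouse lines through 10 genes, chosen by symbol out of the 48440 genes of the count table: the transcription factor gene Nfe2l2, its inhibitor Keap1, and 8 genes listed as antioxidant targets, namely Nqo1, Hmox1, Gclc, Gclm, Txnrd1, Srxn1, Slc7a11 and Gsta4. The rule used symbols alone, though it was set with earlier results of these data known, and each symbol matched a single gene. All 10 were among the 16862 genes that passed the filter on low counts. MCA, 3-methylcholanthrene, is a chemical carcinogen that gives rise to fibrosarcomas. RNA was sequenced in bulk from 30 tumors, each grown in a C57BL/6 mouse from 1 of the 5 lines after hematopoietic cells had been taken out of the tumor suspension with CD45 beads. MCA-943 gave 4 tumors, MCA-948 gave 8, MCA-969 gave 8, MCA-970 gave 6 and MCA-972 gave 4.

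According to the study, growth of MCA-948, MCA-970 and MCA-972 was sensitive to NK1.1+ cells, and growth of MCA-943 and MCA-969 was not. The strain field read Ncr1Cre for the MCA-943 tumors and Ncr1Cre R26DTA for those of the other 4 lines, and does not say whether it names the mouse of the primary tumor or the host of the graft. R26DTA is a diphtheria toxin allele that, switched on by Cre from the Ncr1 locus, deletes cells that express NKp46. The genetic background was C57BL/6 throughout, and the labels listed no treatment and gave no age. The study sorted its lines by the genotype of the mouse that had developed the primary tumor. It grafted them into C57BL/6 mice with and without an antibody that depletes NK1.1+ cells. It does not state which of these hosts gave the sequenced tumors. Each line came from an individual primary tumor, so that the tumors of a line are repeated grafts of 1 line and p-values measure the spread between such grafts. In MCA-969 the labels marked W-1D and W-2D as sensitive, and these 2 tumors were kept with their line.

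NRF2, encoded by Nfe2l2, is a transcription factor that KEAP1 holds in the cytoplasm and directs to degradation. Oxidants and electrophiles modify KEAP1, NRF2 then accumulates in the nucleus, pairs with small MAF proteins and binds antioxidant response elements in front of genes for glutathione synthesis, thioredoxin recycling, heme breakdown and detoxification. NRF2 is controlled mainly as a protein, so that the mRNA of Nfe2l2 or Keap1 does not measure its activity. In tumors the pathway is known for resistance to oxidative stress and to chemotherapy.

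Promoter windows were read from RefSeq on GRCm38.p6 for 7 of the 10 genes, 9 windows in all, as the 250 bases before each annotated start. Windows for Hmox1, Gclc and Gsta4 were not analysed here. The core of the antioxidant response element was searched on both strands as TGACNNNGC and, in a search added after the windows had been read, as TGAGNNNGC. The first form lay in windows of 3 genes, Nfe2l2, Gclm and Txnrd1, and in 10.2% of 32817 windows of all genes. The second form lay in windows of Srxn1 and Slc7a11 and in 14.4% of all windows, and 23% of all windows held either form. The AP-1 motif TGANTCA, which shares letters with the second form, was found only in the Srxn1 window among the 7 genes, at 2 places of which 1 overlapped an element core, and in 6.75% of all windows. Both an element core of the first form and an AP-1 motif stood in 0.838% of all windows. A match describes letters and not a bound site. The windows of the 5 genes with a match are shown because the element is the one that NRF2 is known to bind.

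Nfe2l2, Gclm, Txnrd1 and Srxn1 are printed with the element cores in capitals. The Nfe2l2 window is chr2:75704664-75704913 on the minus strand, the Gclm window is chr3:122245307-122245556 on the plus strand, the Txnrd1 window is the second of 3 for that gene, chr10:82858956-82859205 on the plus strand, and the Srxn1 window is chr2:152105274-152105523 on the plus strand. GENCODE M21 exons of the same gene cover 27 bases of the Txnrd1 window, 8 of the Srxn1 window and 0 of the Nfe2l2 and Gclm windows. The cores read TGACTCCGC in Nfe2l2, TGACGGTGC on the opposite strand in Gclm and TGACAAAGC on the opposite strand in Txnrd1, and they begin 240, 134 and 92 bases before the start. Srxn1 holds TGAGTCGGC on the opposite strand, 158 bases before the start, and TGAGTCAGC, 45 bases before the start.
Nfe2l2: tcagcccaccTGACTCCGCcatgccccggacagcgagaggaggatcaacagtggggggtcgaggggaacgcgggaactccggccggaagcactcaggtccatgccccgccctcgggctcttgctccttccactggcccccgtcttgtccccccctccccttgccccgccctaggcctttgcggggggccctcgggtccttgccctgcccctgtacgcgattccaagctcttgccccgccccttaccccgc
Gclm: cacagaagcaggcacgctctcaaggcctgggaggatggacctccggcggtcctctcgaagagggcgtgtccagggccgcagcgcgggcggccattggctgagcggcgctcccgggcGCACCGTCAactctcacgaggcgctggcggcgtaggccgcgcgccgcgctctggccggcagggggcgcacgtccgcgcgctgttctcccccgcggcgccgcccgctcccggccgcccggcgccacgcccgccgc
Txnrd1: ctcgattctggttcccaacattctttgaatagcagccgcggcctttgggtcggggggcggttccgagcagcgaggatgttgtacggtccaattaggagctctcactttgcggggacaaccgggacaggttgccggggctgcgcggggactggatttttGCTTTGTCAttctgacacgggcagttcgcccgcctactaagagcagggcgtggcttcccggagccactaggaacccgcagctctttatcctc
Srxn1: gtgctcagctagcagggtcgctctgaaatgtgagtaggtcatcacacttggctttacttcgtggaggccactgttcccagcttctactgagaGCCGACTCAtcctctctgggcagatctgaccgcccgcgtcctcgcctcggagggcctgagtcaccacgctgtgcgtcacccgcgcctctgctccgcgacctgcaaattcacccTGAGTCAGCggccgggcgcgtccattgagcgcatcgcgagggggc

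The Slc7a11 window, chr3:50443614-50443863 on the minus strand, is printed with TGATGCAA in capitals, letters of the kind bound by ATF4 and C/EBP proteins, which were searched after the window had been read. They occurred on both strands, 66 and 47 bases before the start, and in 0.792% of all windows. The same window holds TGAGAAAGC, the second form of the element core, on the opposite strand.
Slc7a11: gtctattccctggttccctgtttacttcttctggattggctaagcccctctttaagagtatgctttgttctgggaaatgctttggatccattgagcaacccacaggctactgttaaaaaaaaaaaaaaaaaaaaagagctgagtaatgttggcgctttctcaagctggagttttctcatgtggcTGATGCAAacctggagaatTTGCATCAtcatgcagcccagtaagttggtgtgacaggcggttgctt

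Levels are given as CPM, counts per 1000000 counts after TMM scaling, and as the mean ± SD over the tumors of a line. Totals per tumor lay between 27745104 and 46537062 counts. A difference between 2 lines was called where edgeR's quasi-likelihood test gave an adjusted p (Benjamini-Hochberg, over all genes) under 0.05 and the log2 fold change was at least 1 in size. A gene was called across the 5 lines when the test of any difference passed the same threshold and its fitted line means spanned at least 1 on the log2 scale. The library numbers of the labels fall into 3 runs of 10 tumors that partly follow the lines. All 4 MCA-972 tumors and 6 of MCA-969 were in the first, all 6 of MCA-970 with 2 of MCA-948 and 2 of MCA-969 in the second, and all 4 of MCA-943 with 6 of MCA-948 in the third. In these bulk samples fewer cells of a type and less RNA per cell cannot be told apart. The 10 fibroblast markers were detected in every line and summed to between 15050 and 78900 CPM, highest in MCA-943 and lowest in MCA-948. The 7 leukocyte markers summed to 24.1 to 111 CPM in MCA-943 and to 3.99 to 99.9 CPM in the other lines, so that some leukocyte RNA was present. A macrophage score was added to the model as an alternative, and the part of the other cell types in the results was not tested.

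Of the 10 genes, 5 were called across the 5 lines, Gsta4, Slc7a11, Gclm, Hmox1 and Srxn1, against 58.0% of all genes tested. The median span of the 10 was 1.14 on the log2 scale, beside 1.19 for all genes tested.

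Pair by pair, 26 of the 100 differences between lines in these genes were called, and in 20 of the 26 the tumors of the 2 lines did not overlap. Over all genes, 41389 of 168620 differences were called, a share close to that of the 10 genes. Over all genes, 19.2% of the differences were called without overlap, which is 78.3% of those called, beside 76.9% for the 10 genes. MCA-943 against MCA-972 gave 4 calls (25.6% of all genes were called there), and so did MCA-943 against MCA-970 (27.3%) and MCA-948 against MCA-972 (26.8%). There were 3 calls for MCA-943 against MCA-969 (27.0%) and for MCA-969 against MCA-948 (20.8%). MCA-943 against MCA-948 (29.0%), MCA-969 against MCA-970 (21.4%) and MCA-969 against MCA-972 (20.6%) had 2 each. MCA-948 against MCA-970 (29.4%) and MCA-970 against MCA-972 (17.6%) had 1 each. With 10 genes, the counts of 1 to 4 lie on both sides of these shares. The median log2 difference of the 10 genes was -0.47, -0.51, -0.59 and -0.66 for MCA-943 minus MCA-948, MCA-969, MCA-970 and MCA-972, beside -0.01, -0.04, 0.03 and -0.01 over all genes tested.

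Among the 10 genes, all 13 of the called differences that involved MCA-943 had the lower level in MCA-943, out of 40 differences. Over all genes, 13.6% of the differences with MCA-943 were called lower there, 9159 beside 9210 called higher. All 11 called differences that involved MCA-972, again out of 40, had the higher level in MCA-972. Over all genes that was the case for 12.8%, 8623 beside 6647 called lower. The 13 came from Gsta4, Gclm, Hmox1 and Slc7a11, and the 11 from these genes and Srxn1, so that most genes were counted more than once. All MCA-943 tumors were in the third library run and all MCA-972 tumors in the first. MCA-943 was also the only line whose strain field lacked R26DTA, so that line and strain cannot be told apart for it. With the run in the model, none of the Hmox1 calls held, nor did Gsta4 in MCA-943 against MCA-970. MCA-972 had the highest mean of 4 of the 5 called genes and MCA-969 that of Hmox1. The line with the highest mean was not counted over all genes. Of the 34 called genes in the 6 wider pathway lists described below, 8 were highest in MCA-972 and 11 in MCA-943. Another 5 were highest in MCA-948, 4 in MCA-969 and 6 in MCA-970. Among the 5 genes not called, Nfe2l2 had its lowest mean in MCA-972 and Keap1 its highest in MCA-943.

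**Figure D1:**
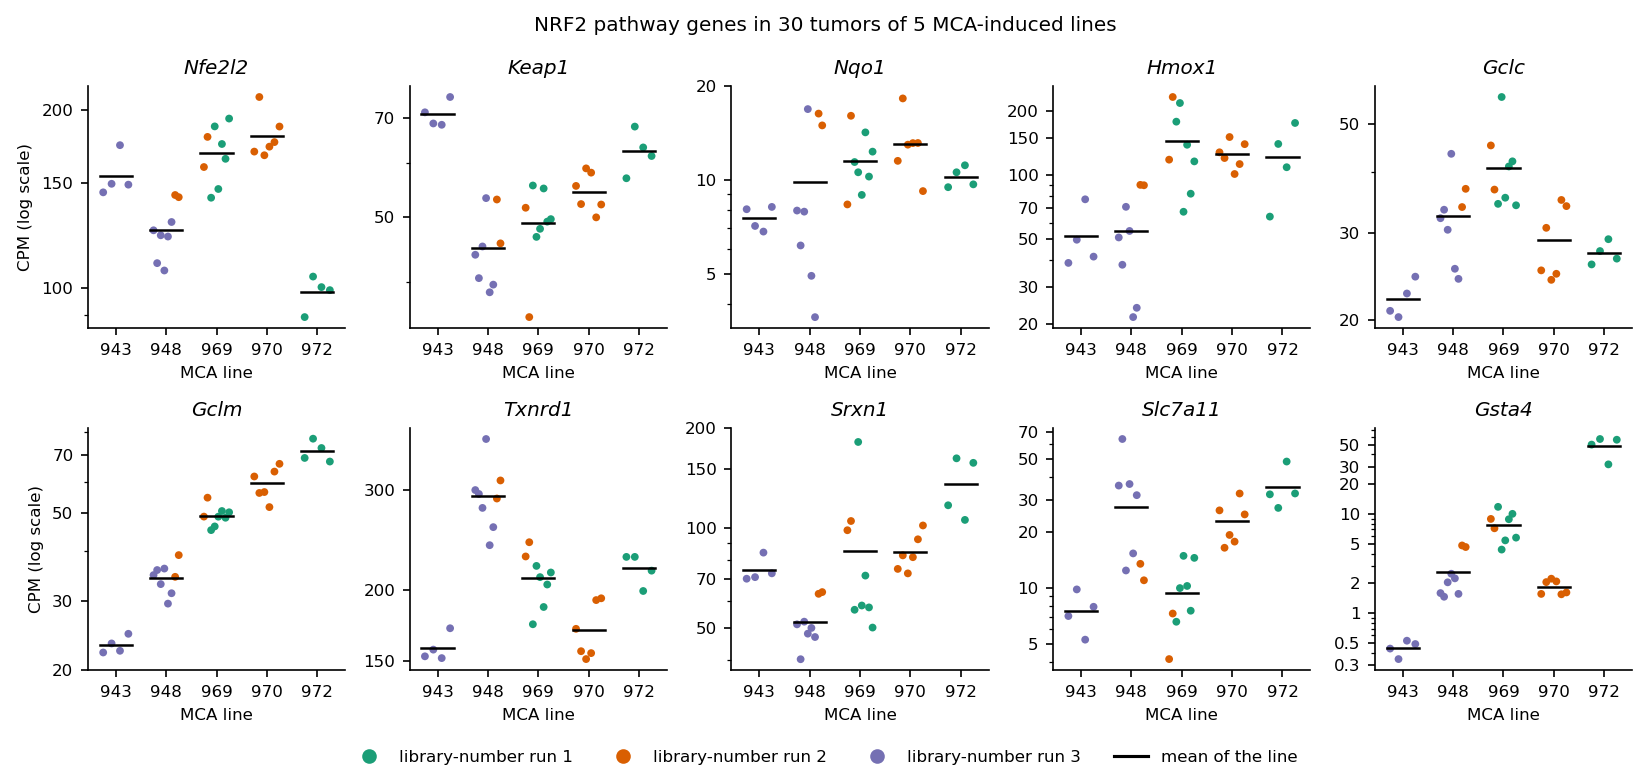
CPM (log scale) of the 10 genes in each of the 30 tumors, by line, coloured by the run of library numbers, with a bar at the mean of each line. Gclm climbed from 23.2 CPM in MCA-943 to 71.6 CPM in MCA-972 with little spread within lines, whereas Nqo1 and Hmox1 in MCA-948 spread over the tumors of that line.

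Gsta4 encodes a glutathione S-transferase that conjugates 4-hydroxynonenal, a product of lipid peroxidation, and it differed most. Its gene lies at chr9:78182774-78209349 (GRCm38). The 4 MCA-972 tumors had 31.6, 50.1, 56.0 and 57.0 CPM, and the 4 MCA-943 tumors had 0.345, 0.441, 0.490 and 0.529 CPM, from 13 to 20 counts each. MCA-969 tumors lay at 4.38 to 11.8 CPM with a median of 8.02, MCA-948 tumors at 1.47 to 4.82 with a median of 2.15, and MCA-970 tumors at 1.55 to 2.23 with a median of 1.84. No tumor of MCA-972 overlapped any tumor of another line, and none of MCA-943 did either. Gsta4 was 108-fold higher in MCA-972 than in MCA-943, a log2 difference of 6.76 that stands in the fit as -6.76 ± 0.42 (SE) for MCA-943 minus MCA-972 (edgeR adjusted p = 1.23e-13). Against the line next below it, MCA-969, MCA-972 was 6.24-fold higher (adjusted p = 1.31e-09). Of the 10 pairs of lines, 9 were called, and only MCA-948 and MCA-970 were not (log2 difference 0.49 ± 0.26, SE, adjusted p = 0.0947). The related genes Gsta1, Gsta2 and Gsta3 did not pass the filter and had at most 16 counts in a tumor, that value being of Gsta2 in MCA-943.

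Within MCA-948, Gsta4 split by library run. The 2 tumors of the second run had 4.65 and 4.82 CPM and the 6 of the third run had 1.47 to 2.5 CPM, a 2.45-fold difference (edgeR adjusted p = 0.00982). Gsta4 was the only one of the 10 genes called between these runs, where 1.81% of 15495 genes were called. Compared within the second run alone, Gsta4 was higher in the 2 MCA-948 tumors than in the 6 MCA-970 tumors by 1.37 ± 0.19 on the log2 scale (SE, adjusted p = 0.000226), and MCA-969 minus MCA-948 fell to 0.78 ± 0.29 with 2 tumors on each side (adjusted p = 0.25). With the run in the model over all 30 tumors, 7 of the 9 calls held. MCA-943 against MCA-970 moved from -2.04 to -0.73 (adjusted p = 0.15), MCA-969 against MCA-948 moved from 1.58 to 0.77 (adjusted p = 0.0921), and the span from MCA-943 to MCA-972 narrowed from -6.76 to -5.51 (adjusted p = 8.18e-09).

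Glutamate-cysteine ligase makes the first and limiting step of glutathione synthesis, and it consists of a catalytic subunit, encoded by Gclc, and a modifier subunit, encoded by Gclm, that raises its efficiency. The modifier subunit gene, at chr3:122245557-122270732, was graded over the lines. Its levels were 22.2, 22.4, 23.4 and 24.7 CPM in the MCA-943 tumors and 67.4, 68.9, 73.0 and 77.0 CPM in the MCA-972 tumors. In between lay MCA-948 at 29.5 to 39.1 CPM (median 34.6), MCA-969 at 45.2 to 54.6 (median 48.9) and MCA-970 at 51.7 to 66.5 (median 59.1). Only MCA-969 and MCA-970 overlapped. Gclm was 3.09-fold higher in MCA-972 than in MCA-943, with -1.63 ± 0.08 (SE) for MCA-943 minus MCA-972 on the log2 scale (edgeR adjusted p = 3.89e-15). All 10 pairs of lines had an adjusted p under 0.05, neighbours in the order included, and 4 of them were past the fold threshold. The smallest step, from MCA-970 to MCA-972, was 1.21-fold (adjusted p = 0.00375). The 4 calls held with the library run in the model, with log2 differences of -1.02 to -1.59. Exons of Gclm share bases with Gm17494 on the opposite strand and with Gm6061 on the same strand, 540 in all, so that some reads there cannot be assigned with certainty.

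The catalytic subunit gene, at chr9:77754535-77794485, followed another order and was not called across the lines. Gclc had 22.1 ± 1.9 CPM (SD, n = 4) in MCA-943, 27.3 ± 1.4 (n = 4) in MCA-972, 29.0 ± 4.9 (n = 6) in MCA-970, 32.5 ± 6.2 (n = 8) in MCA-948 and 40.7 ± 7.6 (n = 8) in MCA-969. The largest step between neighbours was the last, 0.32 on the log2 scale (edgeR adjusted p = 0.0132). Per kilobase of the gene lengths in the file, the ratio of Gclm to Gclc within a tumor was 0.573 ± 0.040 in MCA-943, 0.584 ± 0.070 in MCA-948, 0.676 ± 0.122 in MCA-969, 1.13 ± 0.15 in MCA-970 and 1.43 ± 0.07 in MCA-972. The ratio fell into a lower set of lines, MCA-943, MCA-948 and MCA-969, with 0.444 to 0.808 over their tumors, and a higher set, MCA-970 and MCA-972, with 0.988 to 1.52. Each line of the higher set differed from each of the lower set (two-sided exact permutation test over tumors, 10 pairs computed, p = 0.000333 to 0.0286, adjusted p = 0.00166 to 0.0409). The sets were drawn from these ratios and do not overlap, so each of these exact p-values is the smallest that its numbers of tumors allow. MCA-972 also exceeded MCA-970 (exact p = 0.00952, adjusted p = 0.0159), while the 3 pairs within the lower set had exact p of 0.125 to 0.812. The ratio was examined after the levels of both genes had been seen.

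**Figure D2:**
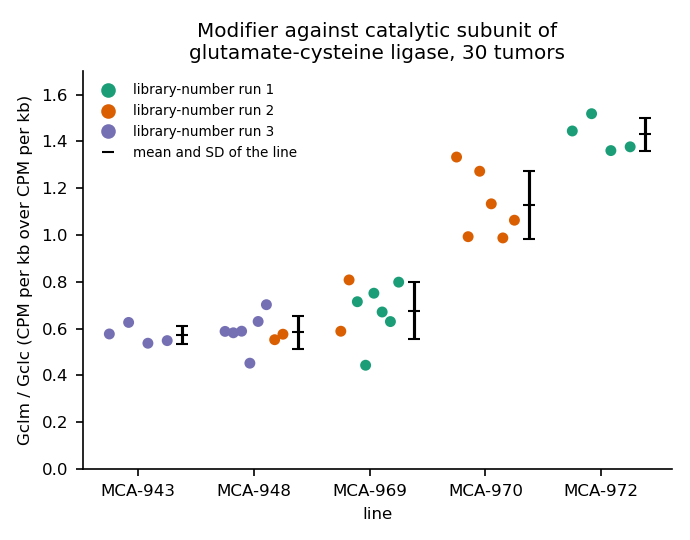
Ratio of Gclm to Gclc, each as CPM per kilobase, in each of the 30 tumors by line, coloured by the run of library numbers, with the mean and SD of each line beside the points. The tumors of MCA-970 and MCA-972 sit at 0.988 or above, and those of the other 3 lines at 0.808 or below.

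Slc7a11 encodes xCT, the light chain of the cystine and glutamate antiporter that brings in the cysteine for glutathione, and its gene lies at chr3:49892526-50443614. The MCA-943 tumors had 5.25, 7.05, 7.91 and 9.82 CPM and the 8 MCA-969 tumors had 4.13 to 14.9 (median 8.76). The sensitive lines were higher, with 27.1, 32.1, 32.4 and 48.2 CPM in the MCA-972 tumors, 16.5 to 32.4 (median 22.2) in MCA-970, and 11 to 63.8 (median 23.6) in MCA-948. The 2 non-sensitive lines overlapped each other and, for MCA-969, the lower tumors of MCA-948. For each of the 6 pairs that set MCA-943 or MCA-969 beside a sensitive line, Slc7a11 was called lower in MCA-943 or MCA-969, by -1.28 ± 0.33 (SE, MCA-969 minus MCA-970, edgeR adjusted p = 0.0013) to -2.21 ± 0.45 (MCA-943 minus MCA-972, adjusted p = 0.000125) on the log2 scale, or 2.43-fold to 4.64-fold. None of the other 4 pairs of lines was called, among them MCA-943 against MCA-969 (-0.32, adjusted p = 0.483). The study's own list of genes lower in non-sensitive tumors, drawn from these tumors, holds Slc7a11, so this direction is not independent evidence. With the line as the unit, the mean log2 CPM was 3.01 over the 2 non-sensitive and 4.70 over the 3 sensitive lines, a difference of -1.69, with exact permutation p = 0.1, the smallest that 2 lines against 3 can give. After adjustment over the 10 genes, this permutation p was 0.857. In the other 9 genes the line means of the 2 groups overlapped.

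Slc7a11 varied within MCA-948 more than any other of the 10 genes did within a line, with a coefficient of variation of 66.3%. The 2 MCA-948 tumors of the second library run had 11 and 13.5 CPM and the 6 of the third run had 12.4 to 63.8 (log2 difference -1.43 ± 0.63, SE, edgeR adjusted p = 0.166). With the run in the model, 5 of the 6 calls held, with -1.72 to -3.01 on the log2 scale, and MCA-969 minus MCA-948 became -1.11 (adjusted p = 0.123). MCA-943 minus MCA-970 moved the other way, from -1.60 to -3.01 (adjusted p = 0.000156). Within a run, MCA-943 minus MCA-948 was -2.14 ± 0.46 in the third, MCA-969 minus MCA-972 was -1.72 ± 0.24 in the first and MCA-969 minus MCA-970 was -1.998 ± 0.33 in the second (SE, adjusted p = 0.00175, 9.87e-05 and 0.00196). MCA-969 minus MCA-948 in the second run, with 2 tumors on each side, was -1.10 ± 0.36 and was not called (adjusted p = 0.208). MCA-948 minus MCA-970 turned in direction, from 0.26 over all tumors to -0.88 ± 0.27 within the second run (adjusted p = 0.0186), neither of them called.

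Hmox1 encodes heme oxygenase-1, which splits heme into biliverdin, carbon monoxide and iron, and lies at chr8:75093621-75100589. MCA-943 tumors had 38.8, 41.5, 49.8 and 77.1 CPM and MCA-948 tumors 21.6 to 90.2 (median 53.0). MCA-969 tumors had 67.4 to 233 CPM (median 129), MCA-970 tumors 101 to 151 (median 124), and the MCA-972 tumors 64.0, 109, 140 and 176. Tumors of MCA-969 and MCA-972 overlapped those of the lower pair, and tumors of MCA-970 did not. All 6 comparisons between MCA-943 or MCA-948 and the other 3 lines were called, from 2.22-fold (MCA-972 over MCA-948, edgeR adjusted p = 0.0036) to 2.78-fold (MCA-969 over MCA-943, adjusted p = 0.00104). None of these 6 calls held with the library run in the model. The log2 differences kept their direction, with 0.97 for MCA-969 minus MCA-948 and -0.23 to -0.84 for the other 5, and their adjusted p lay between 0.17 and 0.764. Without the MCA-972 tumor a-R the comparison of MCA-948 with MCA-972 fell below the fold threshold, at -0.92 (adjusted p = 0.0299).

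The 2 MCA-948 tumors of the second run had 89.8 and 90.2 CPM of Hmox1 and the 6 of the third run had 21.6 to 71.1 CPM, without overlap (log2 difference 1.03 ± 0.42, SE, edgeR adjusted p = 0.137). Against the 6 MCA-970 tumors of the same run, these 2 tumors were lower by -0.46 ± 0.14 (SE, adjusted p = 0.0177), under the fold threshold. Macrophages express Hmox1, so the 12 macrophage markers were set beside it. They summed to 26.7 to 98.5 CPM in MCA-969 (median 37.2) and to 42.6 to 209 in MCA-948 (median 124). In MCA-943 they summed to 40.1 to 193 CPM, in MCA-970 to 37.3 to 492 and in MCA-972 to 53.0 to 129. Of the 12 markers, 11 were tested and 0 were at 0 throughout any line, and 8 were called across the lines, beside 58.0% of all genes tested. With their mean log2 CPM as a covariate, all 6 Hmox1 calls held. Whether macrophages contributed to the Hmox1 differences was not tested.

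**Figure D3:**
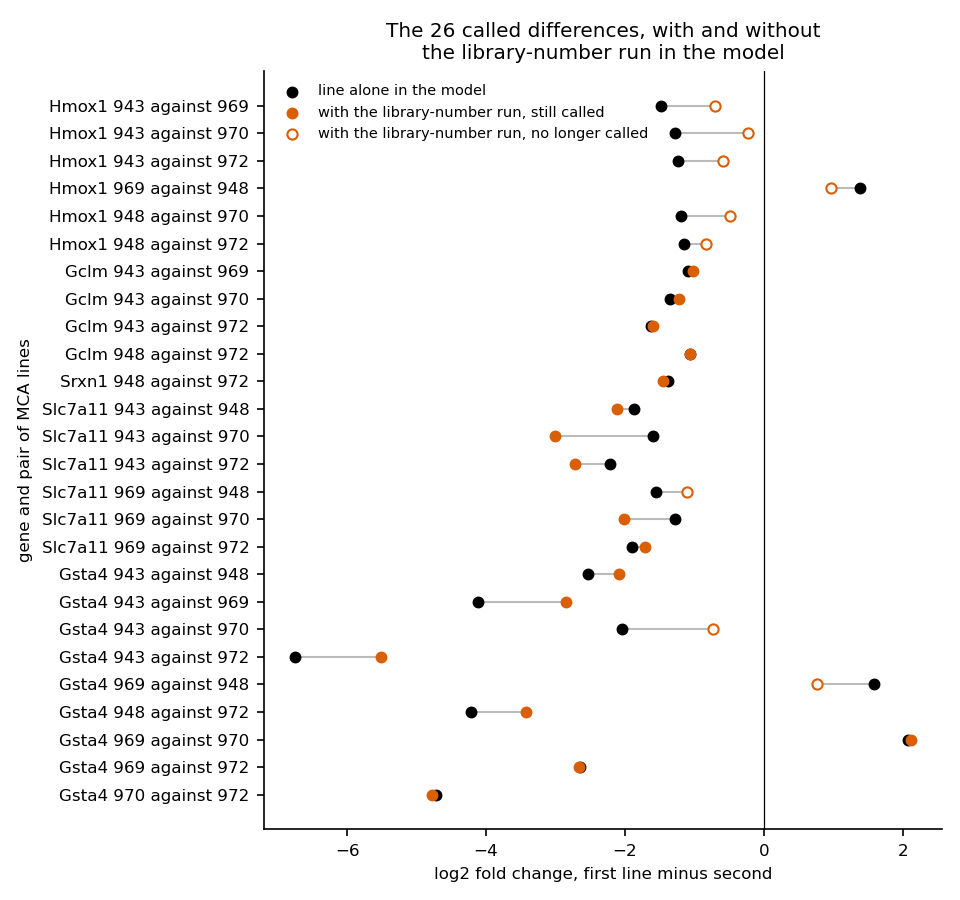
Log2 fold changes of the 26 called differences, first line minus second, from the model with the line alone (black) and with the library-number run added (orange, open where no longer called). All 6 Hmox1 differences and 3 of the other 20 lost their call, and none changed sign.

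Srxn1 encodes sulfiredoxin, which restores overoxidized peroxiredoxins, and Txnrd1 encodes cytosolic thioredoxin reductase, the enzyme that keeps thioredoxin reduced. Srxn1, at chr2:152105516-152111376, had 106, 117, 157 and 162 CPM in the MCA-972 tumors and 40.1 to 64.0 (median 50.5) in the 8 MCA-948 tumors, without overlap. That was 2.61-fold (edgeR adjusted p = 4.43e-06), the only called pair, and it held with the run in the model (log2 difference -1.45 for MCA-948 minus MCA-972, adjusted p = 0.0142). The other lines lay between, at 74.5 ± 6.5 CPM (SD, n = 4) in MCA-943, 84.3 ± 10.9 (n = 6) in MCA-970 and 84.8 ± 44.0 (n = 8) in MCA-969. In MCA-969 the tumors ran from 49.98 to 182 CPM, and the highest was W-R.

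Txnrd1, at chr10:82833951-82897712, stood the other way in MCA-948, where it was highest while Srxn1 was lowest. It had 293 ± 39 CPM in MCA-948 (SD, n = 8), 218 ± 14 in MCA-972 (n = 4), 210 ± 22 in MCA-969 (n = 8), 170 ± 19 in MCA-970 (n = 6) and 158 ± 9 in MCA-943 (n = 4). Its span of 0.89 on the log2 scale was under the fold threshold, although the test of any difference gave an adjusted p of 7.21e-10. MCA-948 was 1.85-fold above MCA-943 (edgeR adjusted p = 4.18e-09) and 1.34-fold above MCA-972, the line next below it (adjusted p = 0.000336), and the tumors of MCA-948 overlapped only those of MCA-969.

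Nqo1 encodes a quinone reductase and is a widely used reporter of NRF2 activity. Its gene lies at chr8:107388225-107403206. Nqo1 was the only one of the 10 whose test of any difference between the lines did not pass, with a span of 0.78 on the log2 scale (edgeR adjusted p = 0.143). Mean levels ran from 7.56 ± 0.68 CPM in MCA-943 (SD, n = 4) over 9.85 ± 5.35 in MCA-948 (n = 8), 10.2 ± 0.8 in MCA-972 (n = 4) and 11.5 ± 2.6 in MCA-969 (n = 8) to 13.04 ± 2.97 in MCA-970 (n = 6). The 8 MCA-948 tumors ran from 3.64 to 16.9 CPM. No neighbours in this order differed, and only MCA-943 against MCA-970 had an adjusted p under 0.05 (1.72-fold, adjusted p = 0.0288). MCA-972, with the highest Gsta4, Gclm, Srxn1 and Slc7a11, held the middle place for Nqo1.

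Both regulators spanned less than 1 on the log2 scale and were not called. Nfe2l2, at chr2:75675513-75704641, had 98.2 ± 6.5 CPM in MCA-972 (SD, n = 4), 125 ± 13 in MCA-948 (n = 8), 155 ± 13 in MCA-943 (n = 4), 169 ± 18 in MCA-969 (n = 8) and 181 ± 16 in MCA-970 (n = 6). The tumors of MCA-972, at 89.2 to 104 CPM, lay below all tumors of the other lines. MCA-970 was 1.84-fold above MCA-972 (edgeR adjusted p = 1.13e-08), under the fold threshold, and MCA-943, MCA-969 and MCA-970 were in an order whose neighbours did not pass (adjusted p = 0.214 and 0.267). Keap1, at chr9:21229730-21239361, had 45.0 ± 5.6 CPM in MCA-948 (n = 8), 48.9 ± 6.3 in MCA-969 (n = 8), 54.5 ± 3.6 in MCA-970 (n = 6), 62.4 ± 4.5 in MCA-972 (n = 4) and 70.9 ± 3.1 in MCA-943 (n = 4). Its ends differed by 1.58-fold (MCA-943 over MCA-948, adjusted p = 3.29e-07), while none of its neighbours in the order passed. Keap1 exons share 510 bases with Gm16754 on the opposite strand.

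**Figure D4:**
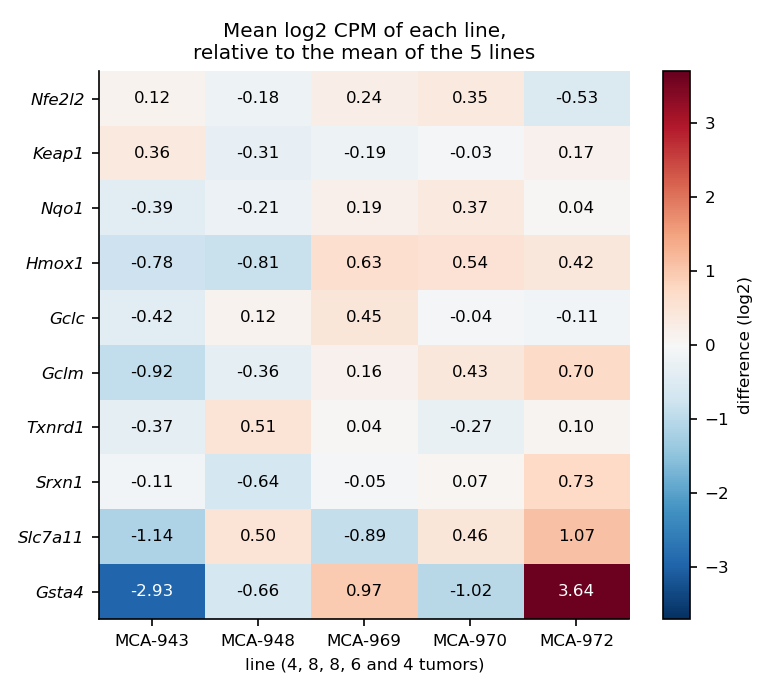
Mean log2 CPM of each gene in each line minus the gene's mean over the 5 lines, in blue where lower and red where higher. The target genes are mostly blue under MCA-943, from -2.93 for Gsta4 to -0.11 for Srxn1, while Keap1 is at 0.36 there, and Nfe2l2 is at -0.53 under MCA-972 beside 3.64 for Gsta4.

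Per kilobase of the gene lengths in the file, and averaged over the 30 tumors, the order of levels was Txnrd1 at 63.8 CPM per kilobase, Hmox1 at 47.0, Nfe2l2 at 39.0, Srxn1 at 28.8, Keap1 at 11.5, Gsta4 at 10.1, Gclc at 9.32, Gclm at 7.43, Nqo1 at 6.88 and Slc7a11 at 1.44. The lengths in the file equal the GENCODE M21 exon lengths for 5 of the 10 genes. With the M21 length of 7086 bases in place of 3417, Txnrd1 would stand at 30.8 CPM per kilobase, below Hmox1 at 58.0 and Nfe2l2 at 39.0, and Gsta4 at 7.66 would fall below Gclc at 8.47.

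A letter of unstated meaning, W or a, marks the titles and could be compared within 4 lines over 26 tumors. None of the 10 genes had an adjusted p under 0.05 between the letters within lines by edgeR or DESeq2, with no fold threshold applied. With edgeR 45 of 16557 genes, 0.272%, did, and 0 of the 10 had an unadjusted p under 0.05, which 1217 genes had. The estimates lay between -0.20 ± 0.20 (SE) for Gsta4 and 0.25 ± 0.22 for Hmox1 on the log2 scale, W minus a. In MCA-969 alone the W tumors had means of 187 CPM of Hmox1 and 110 of Srxn1, beside 101 and 59.4 in the a tumors. In MCA-948 the W tumors had 37.1 CPM of Slc7a11 and the a tumors 17.9. The letter is tied to the library run there, since 2 of 4 W tumors of MCA-969 and 2 of 4 a tumors of MCA-948 were in the second run and the others of these lines were not. The test of unequal letter effects over the 4 lines gave an edgeR p of 0.00368 for Srxn1 and 0.0223 for Slc7a11, which did not pass after adjustment over all genes (adjusted p = 0.328 and 0.422).

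Other genes of the pathway were taken from 6 lists of 68 genes, of which 62 passed the filter and 34 were called across the lines, beside 58.0% of all genes. Their median span was 1.10 on the log2 scale. The lean of the 10 genes toward lower levels in MCA-943 was not seen in these 62. MCA-943 was called higher in 14 and lower in 4 of them against MCA-948, in 8 and 5 against MCA-969, in 9 and 5 against MCA-970 and in 7 and 4 against MCA-972, with median log2 differences of 0.25, 0.17, 0.10 and 0.03. Over all genes MCA-943 was called higher in 2993 and lower in 1897 against MCA-948, in 2035 and 2514 against MCA-969, in 2117 and 2491 against MCA-970, and in 2065 and 2257 against MCA-972. MCA-972 was called higher in 13 and lower in 4 of the 62 against MCA-948, beside 3118 and 1395 over all genes. Against MCA-943 it was called higher in 4 and lower in 7, beside 2257 and 2065 over all genes. Against MCA-969 the counts were 4 and 4, beside 1729 and 1744, and against MCA-970 2 and 3, beside 1519 and 1443. Among 11 regulators only 2 were called, Nfe2l3 and Maff, and the small MAF partners Mafg and Mafk, the competitor Bach1 and the KEAP1 partners Cul3 and Rbx1 spanned 0.45 to 0.87. Nfe2l3, a relative of Nfe2l2, had 6.65 ± 2.42 CPM in MCA-943 (SD, n = 4) and 0.130 ± 0.074 in MCA-969 (n = 8), 5.63 ± 0.40 apart on the log2 scale (SE, edgeR adjusted p = 9.3e-13), and 0 to 2 counts per tumor in MCA-948. Maff, the inducible small MAF, was highest in MCA-970 at 92.0 ± 11.5 CPM (n = 6) and lowest in MCA-948 at 29.8 ± 5.4 (n = 8).

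**Figure D5:**
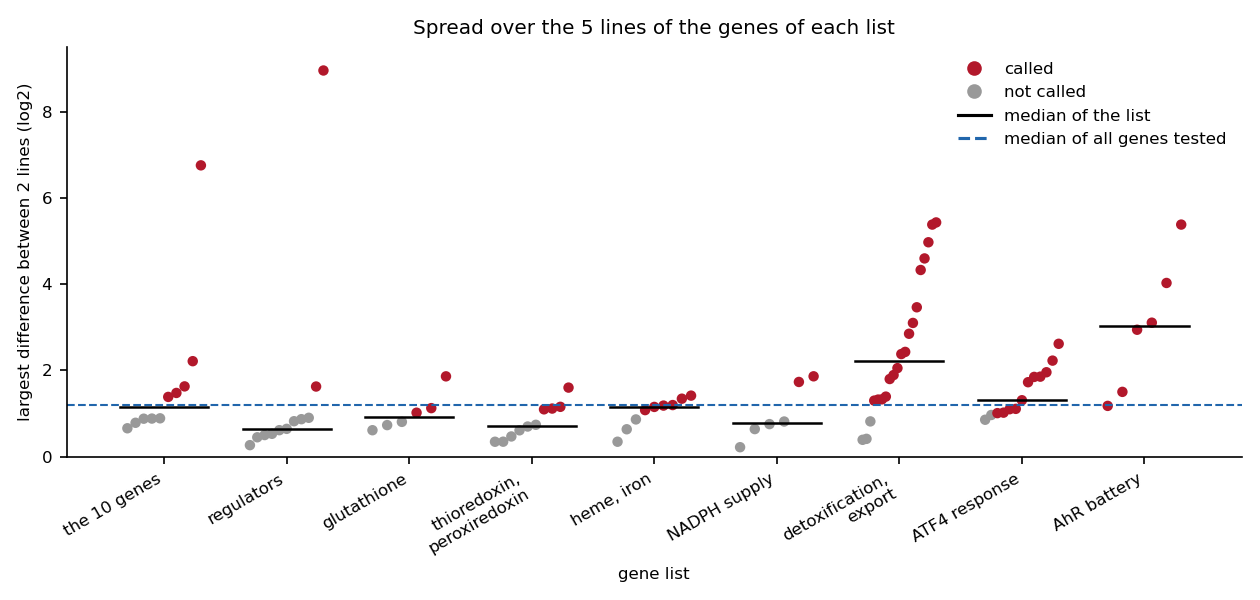
Largest difference between 2 lines (log2, fitted) of each tested gene, by list, in red where called across the 5 lines, with the median of each list (black) and of all genes tested (dashed, 1.19). Detoxification and export genes have a median of 2.22 and regulators one of 0.643, and the highest point is Nfe2l3, whose lowest line had 0 to 2 counts per tumor.

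Of these 6 lists, detoxification and export genes had the widest median span, with 17 of the 20 tested called and a median span of 2.22. For all genes tested the share called was 58.0% and the median span 1.19. Mgst1, a microsomal glutathione transferase, had 28.4 ± 8.5 CPM in MCA-972 (SD, n = 4), 18.3 ± 6.4 in MCA-970 (n = 6) and at most 1.84 on average in the other 3 lines. Cbr3, a carbonyl reductase, also peaked in MCA-972 at 21.9 ± 6.5 CPM (n = 4) and was lowest in MCA-948 at 0.700 ± 0.408 (n = 8). Gstm2 was highest in MCA-943 at 76.0 ± 6.1 CPM (n = 4) and lowest in MCA-972 at 3.14 ± 0.45 (n = 4), the reverse of Gsta4 in these 2 lines. In the other lines the order was not reversed, as MCA-969 had a higher mean than MCA-948 and MCA-970 for both genes. Reads of Gstm genes can be shared between near-identical copies. Aldh3a1, an aldehyde dehydrogenase that both NRF2 and the aryl hydrocarbon receptor are known to induce, was at most 1.14 CPM in any tumor, with 0.427 ± 0.364 CPM in MCA-970 (n = 6) and at most 1 count per tumor in MCA-948. NADPH supplies the reducing power for these enzymes, and 2 of its 6 genes were called, in opposite directions. Me1, malic enzyme, rose from 52.3 ± 6.2 CPM in MCA-943 to 174 ± 16 in MCA-972, and Taldo1, transaldolase, fell from 112 ± 6 to 30.8 ± 2.1 (n = 4 each).

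Glutathione genes other than the ligase had 3 of 6 tested genes called, where 58.0% of all genes tested were called. Gss, glutathione synthetase, was highest in MCA-972 at 29.8 ± 1.6 CPM (n = 4) and lowest in MCA-948 at 14.7 ± 1.1 (n = 8). Gsr, glutathione reductase, ran from 167 ± 15 in MCA-943 to 76.6 ± 7.0 in MCA-970, and Glrx, glutaredoxin, from 35.3 ± 15.8 in MCA-969 to 9.72 ± 2.60 in MCA-948. Of 10 thioredoxin and peroxiredoxin genes 4 were called, Txnrd3, Txnrd2, Prdx5 and Prdx3. The mitochondrial reductase Txnrd2 had 18.4 ± 1.7 CPM in MCA-943 (n = 4) and 8.26 to 10.7 on average in the other lines, so that it was highest where Txnrd1 was lowest. Txnrd3 was lowest in MCA-943, at 7.84 ± 0.95 CPM, and highest in MCA-969 at 23.8 ± 2.6 (n = 8), Prdx5 spanned 43.3 ± 4.1 in MCA-972 to 93.7 ± 5.8 in MCA-943, and Prdx3 spanned 39.2 ± 3.9 in MCA-970 to 83.8 ± 3.9 in MCA-948. Of 9 heme and iron genes 6 were called. The ferritin chains Fth1 and Ftl1, which store the iron that heme breakdown frees, were both lowest in MCA-972, at 795 ± 152 and 346 ± 53 CPM (n = 4), and highest in MCA-970 (1820 ± 551, n = 6) and MCA-948 (922 ± 386, n = 8). The iron exporter Slc40a1 was highest in MCA-948 at 14.5 ± 3.8 CPM and the heme transporter Slc48a1 in MCA-943 at 56.6 ± 7.1.

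ATF4, the factor of the amino acid response, is known to share Slc7a11 with NRF2, and 11 of 13 genes of its response were called, with a median span of 1.31. Over all genes tested 58.0% were called, and their median span was 1.19. Of the 11, 3 were highest in MCA-943, 5 in MCA-948 and 3 in MCA-970, a count not made over all genes. Atf4 itself was not called. Nupr1 had 69.3 ± 7.4 CPM in MCA-943 (SD, n = 4) and 11.3 ± 2.3 in MCA-972 (n = 4), Atf5 had 202 ± 24 and 52.1 ± 8.2, and Aldh1l2 had 81.4 ± 8.0 in MCA-943 and 17.4 ± 6.9 in MCA-969 (n = 8). Chac1, which degrades glutathione, was highest in MCA-948 at 7.25 ± 1.94 CPM (n = 8). The aryl hydrocarbon receptor is what MCA binds, and all 6 tested genes of its battery were called, with a median span of 3.02. Among them Ahrr averaged 0.788 CPM and Aldh3a1 0.217 CPM over all tumors, levels near the floor. The other 2 of the 8 listed genes, Cyp1a1 and Cyp1a2, did not pass the filter. They averaged 0.00087 and 0 CPM. Ahr had 22.6 ± 5.7 CPM in MCA-948 (n = 8) and 2.94 ± 0.54 in MCA-943 (n = 4), while its target Cyp1b1 had 0.671 ± 0.549 and 11.1 ± 4.0, the opposite order. Ahrr, the receptor's repressor, was highest in MCA-972 at 2.06 ± 0.31 CPM (n = 4).

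Across the 30 tumors, the genes whose log2 CPM was most like that of Gsta4 were Slc1a2, Ppl and 5330438D12Rik, with Pearson's r of 0.911, 0.908 and 0.905. For Gclm they were Cyp26b1, Garem2 and Cpxm1, at 0.947, 0.943 and 0.942, and for Slc7a11 Brwd1, Clock and Pds5b, at 0.852, 0.842 and 0.834. These are descriptions over 30 tumors that share 5 lines. Cyp26b1, an enzyme of retinoic acid breakdown, climbed with Gclm from 0.946 CPM in MCA-943 over 3.03, 17.7 and 39.99 in MCA-948, MCA-969 and MCA-970 to 87.7 in MCA-972.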

How the data were processed

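RNA was sequenced in bulk from 30 mouse tumors. According to the authors, reads were aligned with STAR 2.5.3a to GRCm38 and counted on genes with featureCounts, whose version reads 1.5.2 in the labels. Picard is also named there, and the column names say that molecular identifiers had been used to take out duplicates. The strand setting is not given in the sources used here. The deposited values are raw counts per gene. All 30 sample columns were used, and GENCODE M21 named 48058 of 48440 genes.

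Tumors were grouped by the line in their titles. Counts were filtered with filterByExpr and TMM-scaled, and edgeR's robust quasi-likelihood fit, with a coefficient for each line, covered all 16862 genes (biological coefficient of variation 0.221), with Benjamini-Hochberg adjustment over all genes of each comparison. Log2 CPM used a prior count of 2. Sensitivity groups were compared over line means, and the Gclm to Gclc ratio over tumors, by two-sided exact permutation. The fits were tested on simulated data. The 10 genes and all lists were chosen with earlier results of these data known. Named genes are all 10, up to 4 called genes with the largest span per pathway list, and the 3 most correlated genes of the 3 genes with the largest span. Uncalled regulators, Atf4, the untested Gsta and Cyp1a genes and the comparison of Txnrd2 with Txnrd1 were picked after their values were seen. The motifs TGAGNNNGC and TGATGCAA, the ratio, the split of MCA-948 and the fit without its 2 tumors of the second run were added after seeing the data.

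Tried as alternatives were limma-voom and DESeq2, size factors in place of TMM, other filters and fold thresholds, the library run, the animal code or a macrophage score as covariate, and leaving out tumors. The software was Python 3.11.15 with numpy 2.4.6, pandas 2.3.3 and matplotlib 3.10.9, and R 4.3.3 with DESeq2 1.42.0, limma 3.58.1 and edgeR 4.0.16.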

Additional observations from a re-analysis of the deposited data

Results flagged for a closer look

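In 50 sets of tumors, 10 genes in each of 5 lines, 1 tumor stood apart from the others of its line by the gap on the log2 scale. Keap1 had 35.5 CPM in the MCA-969 tumor W-2D and 46.7 to 55.6 CPM in the other 7 MCA-969 tumors. Chance alone would mark about 1 set in 20. The same tumor had the highest Hmox1 of all 30, 233 CPM, and it is 1 of the 2 MCA-969 tumors in the second library run that the labels mark as sensitive.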

How the results depend on the processing

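The fold threshold moved the counts most. With the adjusted p-value alone, 9 of the 10 genes, 59 of the 62 pathway genes and 67 of the 100 differences between lines were called, in place of 5, 34 and 26, and with a log2 threshold of 2 the counts were 2, 12 and 9. Over all genes tested, 15866 of 16862 had an adjusted p under 0.05 across the 5 lines. Shares over all genes are not given here for the pairs of lines at that setting or for the threshold of 2. The 26 called differences all held with limma-voom and DESeq2, with size factors in place of TMM, without a filter, with a mean of at least 1 CPM, with the macrophage score, without the 2 MCA-969 tumors of opposite label and without the 2 MCA-948 tumors of the second library run. With the run in the model 17 of the 26 held and 9 did not, 6 of them of Hmox1, 2 of Gsta4 and 1 of Slc7a11. With the animal code of the titles as a replicate block 24 of 26 held, and Hmox1 in MCA-943 against MCA-972 (-0.99, adjusted p = 0.0653) and in MCA-948 against MCA-972 (-0.97, adjusted p = 0.037) did not. Lines share these codes, but nothing ties a code to 1 animal or day across lines, and they were not taken as pairs. Leaving out each of the 30 tumors in turn gave 25 to 26 calls. None of the 26 called differences changed direction under these settings. Why calls were lost was not tested. The term for the run is estimated from MCA-948 and MCA-969, which span runs with 2 tumors each in the second. Gsta4 in MCA-943 rests on 13 to 20 counts per tumor, where counting error alone is wide.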
